A study of Mus musculus with 15 samples.

Results

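Female mouse hepatocytes were compared after culture in serum of germ-free female mice, which carry no microbiota, and in serum of conventionally raised female mice, with 2 libraries in each group. These 4 libraries, replicates 2 and 3 of either serum, were chosen by their column names from 15 samples in the labels. A pair of columns shared 1 name and could not be assigned, which left 13 libraries in the series. The labels also list female hepatocytes in conventional male serum (3 libraries), female hepatocytes in germ-free female serum with growth hormone (3 libraries) and male hepatocytes in conventional male serum (3 libraries).

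In all groups the cells were cryopreserved primary hepatocytes of CD-1 donors, female or male, seeded at 200000 cells per well on collagen and left to attach for 6 h. They were then kept under a Geltrex overlay in a medium with dexamethasone, insulin, transferrin, albumin and linoleic acid, so that a synthetic glucocorticoid and insulin were present in both sera. Filtered serum at 25% was added on the next day for 24 h, followed by vehicle for 2 h in both groups compared here and by 8 ng per ml growth hormone in the hormone group. No strain or age is given for the serum mice, and no age for the donors. Whether replicates came from distinct cultures, donors or pools of serum is not in the labels, so the p-values cover only the spread between these samples, which may be technical.

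Hepatocytes make most plasma proteins, burn and export fatty acids, store glycogen, form bile acids and clear drugs. Cytokines such as interleukin 6 act through the factor STAT3 to raise acute phase proteins, bone morphogenetic proteins act through SMAD factors to raise the iron hormone hepcidin, and fatty acids act on the nuclear receptor PPAR-alpha to raise enzymes of fatty acid oxidation. Blood of conventional mice carries metabolites and cell wall products of gut bacteria, and the comparison asks how serum without that source changes the RNA of the same cells.

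The 4 libraries held 47798248 and 42903075 counts in conventional and 40393393 and 35442492 counts in germ-free serum (replicates 2 and 3, in this order here and below), within a range of 34097400 to 48742274 over the series. Hepatocyte markers matched the label: the 15 markers summed to 30600 and 27100 CPM (counts relative to the scaled library size) in conventional and 22600 and 22800 CPM in germ-free serum, and 7 of 15 fell (among them Apoa1, Fgb, Ahsg, Asgr1, Cps1 and Trf, named after their values were seen), or 5, 8, 2 and 5 without each of the 4 libraries in turn. Among all genes tested 3.54% fell. Albumin, the main plasma protein, stood at 5920 and 5820 CPM in conventional and 6250 and 6930 CPM in germ-free serum and did not pass the test (log2 0.17 ± 0.0794, adjusted p = 0.245). Markers of other cell types were low. Stellate cell and fibroblast markers summed to 69.1 and 68.6 CPM in conventional and 92.6 and 90.4 CPM in germ-free serum, and Kupffer cell markers to 109 and 119 against 138 and 130 CPM. The other libraries of female hepatocytes had 63.4 to 87.5 and 86.1 to 112 CPM, so both germ-free libraries were the highest for either cell type. Of the 14 stellate and 11 Kupffer members tested edgeR's quasi-likelihood test called 0, at an unadjusted p under 0.05 3 and 1, and DESeq2 called 1 and 0. The quasi-likelihood test called 6.41% of all genes tested. T and NK cell markers summed to 1.69 and 1.27 against 2.26 and 2.68 CPM, with Trbc1 and Trbc2 called as rises, both lost without each library in turn, and Nkg7 and Klrd1 at 0 counts. Bile duct markers summed to 43.1 and 32.6 against 43.7 and 41.6 CPM with 1 rise, Cftr, lost without conventional replicate 3 or either germ-free library, and the parts of these cell types in the results were not tested. The nuclear RNA Neat1 stood at 2980 and 900 CPM in conventional and at 2460 and 844 CPM in germ-free serum, so replicate 2 was the high library of both groups. Conventional replicate 2 also had the most Xist of the 4 (482 CPM against 289 to 360), and the part of these differences in the results was not tested beyond the fits without single libraries.

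Between the sera 1115 of 17405 genes tested differed (6.41%) at an adjusted p under 0.05 by edgeR's quasi-likelihood test with Benjamini-Hochberg adjustment. Of these, 498 rose (2.86% of the genes tested) and 617 fell (3.54%). Most changes were small. The median absolute log2 fold change of the called genes was 0.55, and 155 rises and 74 falls went beyond 2-fold. Among the changes that did not hang on a single library, the fibrinogen chains Fga and Fgg, fatty acid enzymes such as Ehhadh and Acot2, the drug-metabolising Cyp2b10 and the glycogen scaffold Ppp1r3c fell, and the homeobox genes Irx3 and Irx5, the chemokine Cxcl10 and the neuropeptide Npy rose.

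The count rested strongly on single libraries. It was 278 without conventional replicate 2, 1233 without conventional replicate 3, 343 without germ-free replicate 2 and 322 without germ-free replicate 3; in each of these fits the lone library of a group is assumed to vary like the other groups. A stricter set of 163 genes (0.937%) was called in the same direction with all libraries and without each of the 4, of which 85 rose (0.488%) and 78 fell (0.448%). These are called secure genes below. The strand setting of the counts is not given in the sources used here, so reads of a gene whose exons overlap those of another cannot be told apart from the other's. Beside the genes given with their partners below, antisense or other opposite-strand genes overlap Fgg, Irx3 (Irx3os), Rrad, Ndrg1, Oasl1, Pim1, Junb, Il6ra, Irak3, Apoa4, Apoa5, Abcb11, Mgll, Cish, Cry2, Tef, Nr1d1, Cebpa, Nfkb2, Tnfaip2, Spred3, Dusp5, Kif20a, Cyp2a4, Mex3a, AC131780.1, Foxq1, Txnip and Gm17535, and genes of the same strand overlap Apoc2, Nr1h3, Gria3 and Slc25a47.

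**Figure D1:**
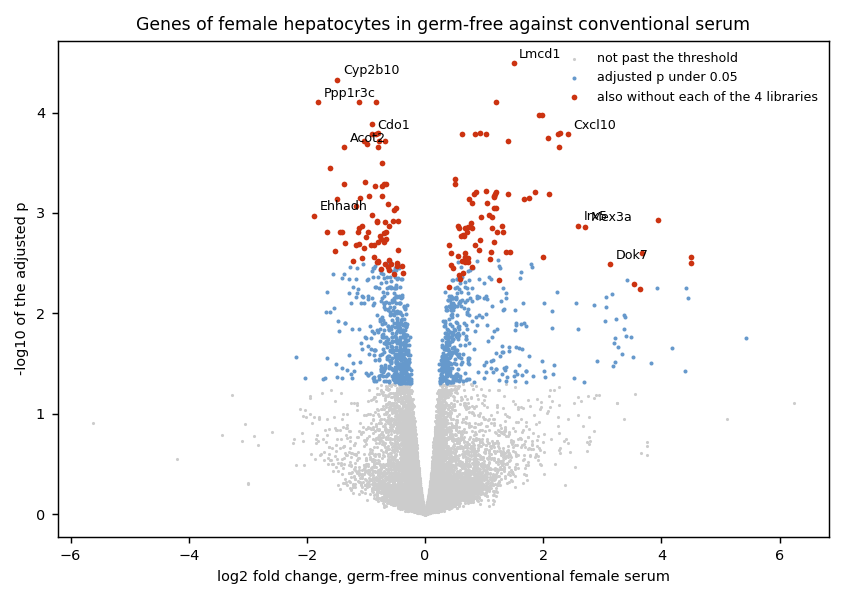
Each point is 1 of the 17405 genes tested; the x axis is the log2 fold change of germ-free minus conventional female serum and the y axis the -log10 of the adjusted p. Red points are the 163 genes also called without each of the 4 libraries, blue points the other called genes; the points farthest to the right include predicted gene models and small RNA genes.

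Conventional male serum on the same female hepatocytes gives a further level for every gene. It shares the conventional female libraries as reference in one comparison and the germ-free libraries in the other, so the comparisons are not independent, and male and germ-free serum differ in sex as well as in microbiota. Male against female conventional serum called 1532 genes (8.8%), and germ-free against conventional male serum called 78 (0.448%). The levels in male serum are given below for many of the genes. There, above, below, between and overlapping describe levels of libraries only. A germ-free minus male difference passed the test only where an adjusted p under 0.05 is printed for it.

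Acute phase genes, which encode plasma proteins that the liver makes in inflammation, fell in 15 of 26 tested members, against 3.54% of all genes, while 11 members missed the threshold. The list had a median log2 fold change of -0.52, and all genes tested had a median of -0.003. For this list and those below, the shares over all genes tested were 3.54% falls and 2.86% rises. The falls numbered 6, 18, 5 and 6 without conventional replicate 2, conventional replicate 3, germ-free replicate 2 and germ-free replicate 3. The 4 secure falls were Fga, Fgg, Saa4 and Crp. In bulk samples such as these, fewer cells that make an RNA and less RNA per cell cannot be told apart.

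Fibrinogen, the clotting protein built of 3 chains, fell in all of its genes, which lie side by side on chromosome 3. Fga, the alpha chain (mm10 chr3:83026076-83033627), had 1490 and 1400 CPM in conventional and 532 and 537 CPM in germ-free serum. The change was -1.44 ± 0.223 on the log2 scale (SE, adjusted p = 0.00156), with n = 2 per group here and below. Each SE and p-value comes from edgeR's quasi-likelihood fit of 13 libraries, male hepatocytes included. The SE is therefore not the spread of the 4 libraries alone. Fgg, the gamma chain (chr3:83007724-83015049), had 249 and 250 CPM in conventional and 114 and 128 CPM in germ-free serum (-1.04 ± 0.17, adjusted p = 0.00224). Fgb, the beta chain (chr3:83040141-83049863), had 2100 and 2150 CPM in conventional and 1120 and 1180 CPM in germ-free serum (-0.89 ± 0.18, adjusted p = 0.00819). The groups did not overlap in any chain, as in 8685 of the 17405 genes tested and in all 1115 called. Fgb was not called without germ-free replicate 2 (adjusted p = 0.0792) or without germ-free replicate 3 (adjusted p = 0.0655). Fga had 291, 424 and 331 CPM in conventional male serum, below both germ-free libraries, with a difference of germ-free minus male serum that did not pass the test (0.62, adjusted p = 0.215). Fgg had 83.5, 100 and 93.3 CPM there and Fgb 620, 799 and 776 CPM, likewise below both germ-free libraries, and neither difference passed the test (adjusted p = 0.358 and 0.089). In germ-free serum with growth hormone, Fga had 1270, 610 and 957 CPM, above both libraries without hormone. Fgb had 2120, 1160 and 1770 CPM there and Fgg 222, 126 and 189 CPM, ranges that overlapped the libraries without hormone. The part of the hormone was not tested here.

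The promoters of these genes and of 2 further genes described below are shown because STAT3, SMAD and interferon-regulated factors are known to act on such genes. Each is RefSeq's GRCm38.p6 sequence from 250 bases before to 50 bases after the start, read 5′ to 3′ on the gene's strand, with matches of either strand in capitals to TTCNNNGAA (STAT), GGCGCC (BMP response) or GAAANNGAA (interferon response). The regions are chr3:83025903-83026202 on the plus strand for Fga, chr3:83049814-83050113 on the minus strand for Fgb, chr3:83007474-83007773 on the plus strand for Fgg, chr7:30943980-30944279 on the minus strand for Hamp and chr5:92348840-92349139 on the minus strand for Cxcl10.
Fga promoter: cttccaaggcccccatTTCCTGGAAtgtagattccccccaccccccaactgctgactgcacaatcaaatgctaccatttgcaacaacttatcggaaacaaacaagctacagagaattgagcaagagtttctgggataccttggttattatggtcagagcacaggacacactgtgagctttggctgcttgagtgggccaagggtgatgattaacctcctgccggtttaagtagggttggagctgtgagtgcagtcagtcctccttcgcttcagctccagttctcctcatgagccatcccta
Fgb promoter: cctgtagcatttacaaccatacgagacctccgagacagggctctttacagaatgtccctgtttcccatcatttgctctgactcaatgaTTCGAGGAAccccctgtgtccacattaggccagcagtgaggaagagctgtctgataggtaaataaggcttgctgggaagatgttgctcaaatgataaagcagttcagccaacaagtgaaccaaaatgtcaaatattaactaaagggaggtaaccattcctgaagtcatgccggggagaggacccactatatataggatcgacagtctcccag
Fgg promoter: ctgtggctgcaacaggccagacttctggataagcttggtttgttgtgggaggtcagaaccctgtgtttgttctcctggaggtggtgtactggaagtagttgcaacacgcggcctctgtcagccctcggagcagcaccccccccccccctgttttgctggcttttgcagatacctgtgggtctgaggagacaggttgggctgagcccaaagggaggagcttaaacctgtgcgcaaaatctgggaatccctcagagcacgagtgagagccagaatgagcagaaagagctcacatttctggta
Hamp promoter: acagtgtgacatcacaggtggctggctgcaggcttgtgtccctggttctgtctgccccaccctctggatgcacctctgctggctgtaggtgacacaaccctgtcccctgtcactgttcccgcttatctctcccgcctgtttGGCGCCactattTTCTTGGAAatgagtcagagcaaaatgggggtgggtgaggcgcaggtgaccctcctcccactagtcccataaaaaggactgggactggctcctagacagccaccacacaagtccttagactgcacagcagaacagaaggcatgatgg
Cxcl10 promoter: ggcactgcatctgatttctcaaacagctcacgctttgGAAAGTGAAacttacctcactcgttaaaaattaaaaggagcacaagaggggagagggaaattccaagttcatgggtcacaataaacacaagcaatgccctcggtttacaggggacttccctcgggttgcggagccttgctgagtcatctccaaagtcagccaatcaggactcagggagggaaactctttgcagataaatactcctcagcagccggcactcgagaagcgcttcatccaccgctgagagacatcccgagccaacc
Fga held TTCCTGGAA from 234 to 226 bases before its start, and Fgb held TTCGAGGAA from 162 to 154 bases before. Hamp held TTCTTGGAA from 97 to 89 bases before its start with GGCGCC just upstream, from 109 to 104 bases before. Cxcl10 held GAAAGTGAA from 213 to 205 bases before. Fgg held no match in this window. Of 32851 mouse promoters of this length, 8.3% held the STAT motif, 11.9% GGCGCC and 8.56% the interferon motif. Such a match is a description of letters, not a binding site.

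Other acute phase proteins split into those that fell and those that did not pass the test. Hp, haptoglobin, which binds free haemoglobin, had 2660 and 2040 CPM in conventional and 1090 and 1060 CPM in germ-free serum (-1.13 ± 0.217, adjusted p = 0.00577); it was not called without conventional replicate 2 (-0.93, adjusted p = 0.0707) or without either germ-free library (adjusted p = 0.0552 and 0.0655). Steap4, a metalloreductase that interleukin 6 raises, had 356 and 222 CPM in conventional and 113 and 111 CPM in germ-free serum (-1.36 ± 0.246, adjusted p = 0.00408), and was lost without conventional replicate 2 (adjusted p = 0.064) or germ-free replicate 3 (adjusted p = 0.0516). Lbp, the plasma protein that carries bacterial lipopolysaccharide, had 86.5 and 60.2 CPM in conventional and 41.8 and 41.4 CPM in germ-free serum (-0.82 ± 0.184, adjusted p = 0.0147) and was called neither without conventional replicate 2 nor without either germ-free library (adjusted p = 0.223, 0.0968 and 0.107). In each of these 3 genes the germ-free libraries lay close together and the conventional ones apart. Hp had 638, 780 and 695 CPM in conventional male serum and Steap4 67.6, 108 and 99.8 CPM, below both germ-free libraries, and Lbp had 34, 43.1 and 38.7 CPM, which overlapped them. In germ-free serum with growth hormone Hp had 2470, 1200 and 1980 CPM, Steap4 417, 225 and 316 CPM and Lbp 77.7, 46.3 and 63.3 CPM. All 3 genes were there above both libraries without hormone and overlapped conventional female serum. The part of the hormone was not tested.

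The inducible serum amyloids did not pass the test. Saa1 had 281 and 248 CPM in conventional and 230 and 241 CPM in germ-free serum (-0.17 ± 0.0914, adjusted p = 0.316) and Saa2 had 226 and 225 CPM in conventional and 199 and 206 CPM in germ-free serum (-0.15 ± 0.0825, adjusted p = 0.31). Both are near-identical genes between which reads may be split. Cd14, the receptor for lipopolysaccharide, had 286 and 305 CPM in conventional and 264 and 269 CPM in germ-free serum (-0.15 ± 0.0639, adjusted p = 0.185). It was higher in germ-free than in conventional male serum, where it had 226, 215 and 212 CPM (log2 0.29, adjusted p = 0.0407). Socs3, the feedback inhibitor that STAT3 induces, had 6.9 and 8.24 CPM in conventional and 7.71 and 8.61 CPM in germ-free serum (0.11 ± 0.122, adjusted p = 0.666).

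Within the list of interleukin 6 and STAT3 genes, 2 members rose and 4 fell of 14 tested, with none secure and 0, 4, 0 and 0 falls without conventional replicate 2, conventional replicate 3, germ-free replicate 2 and germ-free replicate 3. The falls were the receptor subunits Il6ra (-0.73), Il6st (-0.39) and Osmr (-0.42) and the hepatokine Fgl1 (-0.48). Among all genes tested 3.54% fell and 2.86% rose. Pim1, a kinase, rose from 54.5 and 67.7 to 132 and 133 CPM (1.12 ± 0.204, adjusted p = 0.00455), but not without conventional replicate 2 (adjusted p = 0.0673). Pim1 had 149, 94.7 and 118 CPM in conventional male serum, a range that spans the germ-free libraries. Junb, a factor of early responses, rose by less (0.42 ± 0.0848, adjusted p = 0.00746) and was called neither without that library (adjusted p = 0.0892) nor without germ-free replicate 3 (adjusted p = 0.0888).

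Hamp encodes hepcidin, the hormone that lowers plasma iron, and had 99 and 65.9 CPM in conventional and 26.3 and 27.6 CPM in germ-free serum (chr7:30942368-30944032; -1.61 ± 0.339, adjusted p = 0.00974). It was called without conventional replicate 3, but not without conventional replicate 2 (-1.29, adjusted p = 0.11) or either germ-free library (adjusted p = 0.0915 and 0.0833). Of 22 iron and BMP genes 5 fell and 1 rose, against 3.54% falls and 2.86% rises over all genes tested. Id1, a direct target of bone morphogenetic protein signalling, had 19.9 and 20.3 CPM in conventional and 9.73 and 11.6 CPM in germ-free serum (-0.91 ± 0.212, adjusted p = 0.0175), and the BMP co-receptor Hfe2, or hemojuvelin, changed by -0.96 ± 0.266 (adjusted p = 0.0416). Smad7, an inhibitor of the same pathway, rose from 33.8 and 34.1 to 48.8 and 45.9 CPM (0.48 ± 0.0981, adjusted p = 0.00839). Hamp had 17.5, 29.8 and 14.3 CPM in conventional male serum, which overlapped germ-free serum. There Id1 was lower still, at 5.25, 6.56 and 4.91 CPM, and Smad7 higher, at 65.3, 60.2 and 56.5 CPM. In germ-free serum with growth hormone Hamp had 83.3, 32.6 and 68.4 CPM, above both libraries without hormone. The part of the hormone was not tested. Id1 was lost without conventional replicate 2 or either germ-free library, adjusted p = 0.0887, 0.153 and 0.0676. Hfe2 was lost without conventional replicate 2 or either germ-free library, adjusted p = 0.271, 0.132 and 0.235, and Smad7 was lost without conventional replicate 2 or germ-free replicate 2, adjusted p = 0.0738 and 0.082. The falls of the list numbered 0, 5, 1 and 0 without each library in turn.

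Of 23 complement genes 3 fell and 1 rose, and of 24 coagulation genes 7 fell, against 3.54% falls and 2.86% rises over all genes. Without conventional replicate 2, germ-free replicate 2 and germ-free replicate 3 the falls were 0, 0 and 1 among complement and 0, 1 and 0 among coagulation genes. Mbl2, a lectin that binds microbial sugars, had 810 and 754 CPM in conventional and 471 and 547 CPM in germ-free serum (-0.62 ± 0.129, adjusted p = 0.00935; lost without conventional replicate 2 or germ-free replicate 2, adjusted p = 0.0865 and 0.112). Cfb and C2, the paired proteases of the alternative and classical routes, changed by -0.66 and -0.65; the read-through model Gm20547 overlaps both, so their reads cannot be told apart. Clu, clusterin, was the 1 rise, from 7790 and 6880 to 9430 and 9570 CPM (0.37 ± 0.0777, adjusted p = 0.00934; lost without conventional replicate 3 or either germ-free library, adjusted p = 0.0669, 0.0541 and 0.0674).

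**Figure D2:**
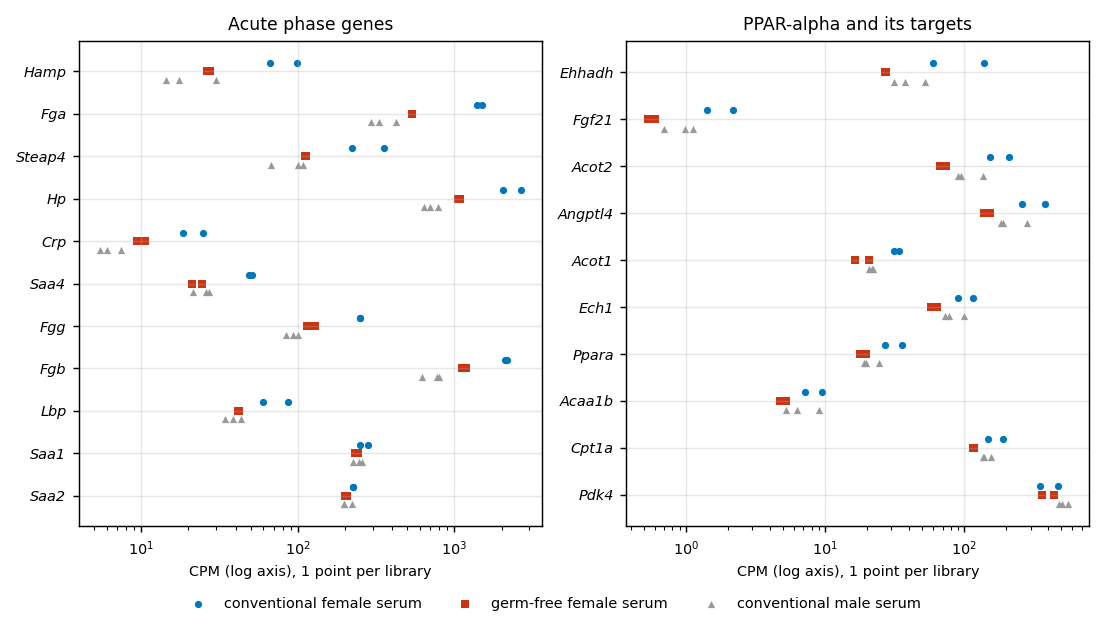
CPM on a log axis, 1 point per library, for acute phase genes (left) and for PPAR-alpha and its targets (right) in conventional female serum (blue), germ-free female serum (red) and conventional male serum (grey). Fga sits at 1490 and 1400 CPM in conventional and 532 and 537 CPM in germ-free serum, while Saa1 and Saa2 lie close together in all 3 sera. Pdk4 overlaps between conventional and germ-free female serum and has 509, 481 and 561 CPM in conventional male serum, above both.

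Fatty acid oxidation genes under PPAR-alpha fell in 17 of 44 tested members, against 3.54% of all genes. Their median log2 was -0.47, and 27 missed the threshold. The falls numbered 4, 28, 6 and 7 without conventional replicate 2, conventional replicate 3, germ-free replicate 2 and germ-free replicate 3. The secure falls were Ehhadh, Acot2, Acot1 and Angptl4. Ppara itself, the receptor, had 35.9 and 27.1 CPM in conventional and 19.7 and 17.7 CPM in germ-free serum (-0.75 ± 0.14, adjusted p = 0.00498) and was not called without conventional replicate 2 (adjusted p = 0.0894) or germ-free replicate 3 (adjusted p = 0.068).

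Ehhadh, the bifunctional enzyme of peroxisomal fatty acid oxidation (chr16:21761287-21787807), had 140 and 59.7 CPM in conventional and 27.6 and 27.1 CPM in germ-free serum (-1.87 ± 0.274, adjusted p = 0.00107). The conventional libraries differed by more than 2-fold, and without replicate 2 the change was -1.13 (adjusted p = 0.00493). Acot2, a mitochondrial acyl-CoA thioesterase (chr12:83987861-83993873), had 210 and 153 CPM in conventional and 73.9 and 67 CPM in germ-free serum (-1.36 ± 0.164, adjusted p = 0.000221). Angptl4, a secreted inhibitor of lipoprotein lipase, had 383 and 260 CPM in conventional and 140 and 153 CPM in germ-free serum (-1.14 ± 0.177, adjusted p = 0.00156). All 3 had intermediate levels in conventional male serum, at 37.4, 52.4 and 31.3 CPM for Ehhadh, 95.5, 137 and 90.4 CPM for Acot2 and 191, 284 and 184 CPM for Angptl4, above the germ-free libraries. Angptl4 overlapped conventional female serum. The germ-free minus male difference passed the test in none of them (adjusted p = 0.447, 0.0873 and 0.135, in this order).

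Other targets gave less secure falls or missed the threshold. Cpt1a, which loads fatty acids for entry into mitochondria, had 190 and 149 CPM in conventional and 117 and 116 CPM in germ-free serum (-0.55 ± 0.097, adjusted p = 0.00375) and was lost only without conventional replicate 2 (adjusted p = 0.064). Fgf21, a hormone of fasting, was scarce, with 2.19 and 1.43 CPM in conventional and 0.601 and 0.53 CPM in germ-free serum (-1.67 ± 0.35, adjusted p = 0.00962; lost without conventional replicate 2 or either germ-free library, adjusted p = 0.13, 0.071 and 0.0924). Pdk4, a kinase that spares glucose and a common PPAR-alpha target, had 476 and 349 CPM in conventional and 441 and 362 CPM in germ-free serum (-0.04 ± 0.142, adjusted p = 0.913), and Cyp4a14, a fatty acid hydroxylase, had 1.22 and 0.491 CPM in conventional and 0.336 and 0.641 CPM in germ-free serum (-0.83 ± 0.449, adjusted p = 0.312).

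Lipid droplet proteins held 2 secure falls among 17 genes, of which 3 fell and 2 rose (2, 6, 2 and 2 falls without each library in turn). Shares over all genes tested were 3.54% falls and 2.86% rises. Cidec, which fuses lipid droplets, had 27.1 and 17.2 CPM in conventional and 8.12 and 7.25 CPM in germ-free serum (-1.53 ± 0.251, adjusted p = 0.00241). Hsd17b13, a droplet enzyme of liver, had 25.4 and 24.8 CPM in conventional and 13 and 13 CPM in germ-free serum (-0.95 ± 0.13, adjusted p = 0.000678), and conventional male serum gave 8.89, 8.9 and 10.4 CPM, below both. Cidec in conventional male serum ranged from 10.6 to 20.5 CPM, between the other sera and overlapping conventional female serum. The other fall was Mgll (-0.78, and -0.46 without conventional replicate 2; lost without conventional replicate 2 or either germ-free library, adjusted p = 0.354, 0.169 and 0.127). The rises were G0s2 (0.72), an inhibitor of fat breakdown that was lost without conventional replicate 3 or either germ-free library, and Cidea (1.58), which had under 2 CPM in every library of the 3 sera and was lost without conventional replicate 2 or germ-free replicate 2, adjusted p = 0.185 and 0.172.

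Plasma lipoprotein genes fell in 5 of 21 members, with 3, 7, 2 and 3 falls without each library in turn. Apoa1, the main protein of high-density lipoprotein, had 507 and 436 CPM in conventional and 226 and 254 CPM in germ-free serum (-0.97 ± 0.179, adjusted p = 0.00455; lost without germ-free replicate 2, adjusted p = 0.0631). Apoa5, which promotes triglyceride clearance, had 50.6 and 52.3 CPM in conventional and 30.1 and 28.5 CPM in germ-free serum (-0.81 ± 0.139, adjusted p = 0.00309) and was secure, as was Apoa4 (-0.66), which lies outside the naming rule and was picked after its values were seen. Apof and Apoc2 were the other falls (-0.73 and -0.71), beside 3.54% falls over all genes tested. Apof was lost without conventional replicate 2 or either germ-free library, adjusted p = 0.157, 0.102 and 0.0656, and Apoc2 was lost without conventional replicate 2 or either germ-free library, adjusted p = 0.364, 0.225 and 0.136. Apoc2 had 104, 160 and 121 CPM in conventional male serum, which overlapped conventional female serum. Apoa1 had 287, 430 and 289 CPM there, above both germ-free libraries, but the difference did not pass the test (adjusted p = 0.252). Apoa5 had 32.7, 34.6 and 25.8 CPM, which overlapped germ-free serum.

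Among 29 drug-metabolism genes that answer to CAR and PXR, 7 fell, with 4, 10, 4 and 4 falls without each library in turn. Falls made up 3.54% of all genes tested. Cyp2b10, the classic target of CAR (chr7:25897620-25926624), had 19.9 and 18.6 CPM in conventional and 6.73 and 7.05 CPM in germ-free serum (-1.48 ± 0.132, adjusted p = 4.72e-05). Its replicates differed little, and conventional male serum gave 7.12, 6.45 and 5.62 CPM, close to germ-free serum. Aldh1a7, an aldehyde dehydrogenase, had 36.5 and 29 CPM in conventional and 15.5 and 15.8 CPM in germ-free serum (-1.07 ± 0.18, adjusted p = 0.00282). Aldh1a7 had 16.3, 20.2 and 15.3 CPM in conventional male serum, which overlapped germ-free serum. Cyp3a11, the main PXR target, had 56.7 and 53.7 CPM in conventional and 40.9 and 43.1 CPM in germ-free serum (-0.40 ± 0.0839, adjusted p = 0.0104) and was lost without conventional replicate 2 or either germ-free library, adjusted p = 0.106, 0.101 and 0.0546. Nr1i2, which encodes PXR, changed by -0.70 ± 0.172 (adjusted p = 0.0244; lost without conventional replicate 2 or either germ-free library, adjusted p = 0.239, 0.102 and 0.167). Cyp1a1, the main target of the aryl hydrocarbon receptor, which senses microbial indoles among other ligands, stood at 1.09 and 1 CPM in conventional and 1.03 and 0.613 CPM in germ-free serum (-0.34 ± 0.412, adjusted p = 0.694). Of 7 aryl hydrocarbon receptor genes tested edgeR's quasi-likelihood test called 0, with 4 at an unadjusted p under 0.05 and 2 called by DESeq2. It called 6.41% of all genes tested, so 0 of 7 is near that share.

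Bile acid genes fell in 7 and rose in 1 of 27 members, with 2, 7, 4 and 2 falls without each library in turn. Over all genes tested, 3.54% fell and 2.86% rose. Acox2, an oxidase that shortens the bile acid side chain, had 102 and 79.9 CPM in conventional and 41.9 and 42.5 CPM in germ-free serum (-1.11 ± 0.154, adjusted p = 0.000718). Abcb4, the phospholipid pump of bile, had 22.4 and 19.1 CPM in conventional and 11.1 and 9.31 CPM in germ-free serum (-1.02 ± 0.132, adjusted p = 0.00049). Both were secure. Acox2 had 44.9, 63.9 and 46.7 CPM in conventional male serum, between the other sera, but germ-free minus male did not pass the test (adjusted p = 0.489). Abcb4 had 9.72, 9.96 and 11.2 CPM, which overlapped germ-free serum. Baat, which joins bile acids to taurine, had 7.79 and 6.32 CPM in conventional and 2.88 and 2.93 CPM in germ-free serum (-1.28 ± 0.247, adjusted p = 0.00624; lost without conventional replicate 2 or either germ-free library, adjusted p = 0.0687, 0.0633 and 0.0588). Nr1h4, the bile acid receptor FXR, changed by -0.68 ± 0.18 (adjusted p = 0.0349; lost without conventional replicate 2 or either germ-free library, adjusted p = 0.237, 0.213 and 0.106).

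The bile salt pump was the rise: Abcb11 had 21.4 and 31.9 CPM in conventional and 37.7 and 39.8 CPM in germ-free serum (0.54 ± 0.151, adjusted p = 0.0422), and 0.28 without conventional replicate 2 (lost without conventional replicate 2 or either germ-free library, adjusted p = 0.403, 0.128 and 0.205). Cyp7a1, the rate-limiting enzyme of bile acid synthesis, stayed under 1 CPM in every library, with 0.392 and 0.603 CPM in conventional and 0.481 and 0.585 CPM in germ-free serum (0.10 ± 0.443, adjusted p = 0.929). Nr0b2, the repressor SHP that FXR induces, had 0.971 and 1.27 CPM in conventional and 0.817 and 0.948 CPM in germ-free serum (-0.35 ± 0.404, adjusted p = 0.681). Cyp8b1, which sets the share of cholic acid, had 5.97 and 5.47 CPM in conventional and 4.52 and 4.65 CPM in germ-free serum (-0.32 ± 0.183, adjusted p = 0.344), and it was lower in germ-free than in conventional male serum, where it had 6.83, 10.5 and 7.87 CPM (log2 -0.87, adjusted p = 0.0349).

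Of 11 LXR genes 3 fell, against 3.54% of all genes. They were the sterol exporters Abcg5 (-0.77 ± 0.172) and Abcg8 (-0.78 ± 0.217), which lie head to head and overlap, and the receptor Nr1h3 (-0.45 ± 0.118). None was called without either germ-free library or without conventional replicate 2 (adjusted p = 0.103, 0.283 and 0.234). Of 25 cholesterol synthesis genes 2 rose, against 2.86% of all genes, and 23 missed the threshold. Insig1, a sterol sensor, had 61.9 and 69.1 CPM in conventional and 89.5 and 101 CPM in germ-free serum (0.54 ± 0.103, adjusted p = 0.00551). It was lost without conventional replicate 2 or germ-free replicate 3, adjusted p = 0.0794 and 0.0751. Of 20 lipogenesis genes 2 rose and 2 fell, against 2.86% and 3.54% of all genes, and none of them was secure. Fasn, the fatty acid synthase, rose from 100 and 92.7 to 142 and 126 CPM (0.48 ± 0.0949, adjusted p = 0.00709; lost without germ-free replicate 2, adjusted p = 0.092). Gpam, which starts glycerolipid synthesis, fell and had 114 and 90.6 CPM in conventional and 66.7 and 60.9 CPM in germ-free serum (-0.68 ± 0.142, adjusted p = 0.00912; lost without conventional replicate 2 or either germ-free library, adjusted p = 0.137, 0.0517 and 0.101). Thrsp, a regulator of lipogenesis, fell as well (-0.48 ± 0.108, adjusted p = 0.0149; lost without conventional replicate 2 or germ-free replicate 2, adjusted p = 0.0988 and 0.159). Fasn had 141, 122 and 140 CPM in conventional male serum and Gpam had 56, 73.1 and 67.2 CPM, and both overlapped germ-free serum.

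Glucose and glycogen genes fell in 9 of 22 members, with 3, 6, 1 and 1 falls without each library in turn. All genes tested fell in 3.54%. Ppp1r3c, a scaffold that activates glycogen synthase (chr19:36731731-36736653), had 8.57 and 8.75 CPM in conventional and 2.67 and 2.26 CPM in germ-free serum (-1.81 ± 0.178, adjusted p = 7.94e-05). The conventional libraries were nearly equal, and conventional male serum gave 2.06, 2.28 and 1.67 CPM. Pck1, the rate-limiting enzyme of gluconeogenesis, had 4.19 and 5.07 CPM in conventional and 2.91 and 3.01 CPM in germ-free serum (-0.64 ± 0.153, adjusted p = 0.0195) and was lost without conventional replicate 3 or either germ-free library, adjusted p = 0.107, 0.125 and 0.0997. G6pc, the last step of glucose release, had 1.43 and 2.14 CPM in conventional and 1.01 and 1.64 CPM in germ-free serum (-0.44 ± 0.277, adjusted p = 0.403).

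Amino acid breakdown genes fell in 5 and rose in 1 of 33 members, against 3.54% falls and 2.86% rises over all genes, with 3, 4, 2 and 2 falls without each library in turn. Tat, the tyrosine aminotransferase (chr8:109990437-109999803), had 9.98 and 11.8 CPM in conventional and 3.87 and 4.71 CPM in germ-free serum (-1.35 ± 0.217, adjusted p = 0.00199), and Cdo1, which oxidises cysteine, had 800 and 856 CPM in conventional and 462 and 430 CPM in germ-free serum (-0.89 ± 0.101, adjusted p = 0.000164). Both were secure. Tat had 5.54, 6.45 and 3.16 CPM in conventional male serum, which overlapped germ-free serum, and Cdo1 had 370, 378 and 338 CPM, below both germ-free libraries. Cps1, carbamoyl-phosphate synthetase, which starts the urea cycle, had 17.8 and 18 CPM in conventional and 12 and 11.9 CPM in germ-free serum (-0.58 ± 0.1, adjusted p = 0.00325) and was secure. It was the 1 call among 9 urea cycle genes with all libraries, against 6.41% of all genes tested. Cps1 had 11.7, 12.8 and 12.4 CPM in conventional male serum, which overlapped germ-free serum. Tdo2, which opens the tryptophan ring, went the other way, from 60 and 161 to 493 and 486 CPM (2.15 ± 0.449, adjusted p = 0.00947). The conventional libraries of Tdo2 differed by more than 2-fold, and it was not called without conventional replicate 2 (1.61, adjusted p = 0.114) or without either germ-free library (adjusted p = 0.0543 and 0.0538). Tdo2 had 255, 96 and 260 CPM in conventional male serum, below germ-free serum and overlapping conventional female serum, and germ-free minus male did not pass the test (adjusted p = 0.197).

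Glucocorticoid targets held 6 falls and 1 rise among 14, against 3.54% and 2.86% of all genes, in a medium with dexamethasone in both groups. The secure falls were Tat and Angptl4, already given, and Zbtb16 and Errfi1. Zbtb16, a transcription factor, had 79.1 and 75.2 CPM in conventional and 43.9 and 42.8 CPM in germ-free serum (-0.83 ± 0.0934, adjusted p = 0.000164). Errfi1, an inhibitor of the EGF receptor, had 815 and 834 CPM in conventional and 555 and 531 CPM in germ-free serum (-0.60 ± 0.107, adjusted p = 0.00373). Zbtb16 had 47.5, 55.1 and 45.1 CPM in conventional male serum, between the other sera, and Errfi1 had 401, 506 and 458 CPM, below both germ-free libraries. Fkbp5, a chaperone that glucocorticoids strongly induce, had 74.5 and 56.6 CPM in conventional and 45.6 and 47.9 CPM in germ-free serum (-0.49 ± 0.135, adjusted p = 0.0418), and -0.28 without conventional replicate 2 (lost without conventional replicate 2 or either germ-free library, adjusted p = 0.427, 0.199 and 0.151). Tsc22d3, another common target, had 150 and 147 CPM in conventional and 121 and 126 CPM in germ-free serum (-0.26 ± 0.0792, adjusted p = 0.0592).

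Clock genes fell in 4 of 21 members, and in 2, 5, 3 and 1 without each library in turn. The share of falls over all genes tested was 3.54%. Per2, a repressor of the circadian clock (chr1:91415982-91459324), had 12.6 and 11.3 CPM in conventional and 5.94 and 4.63 CPM in germ-free serum (-1.17 ± 0.166, adjusted p = 0.000845) and was secure. Per2 had 5.6, 7.34 and 5.03 CPM in conventional male serum, which overlapped germ-free serum. Tef and Cry2 fell as well (-0.48 and -0.44). Tef was lost without conventional replicate 3 or germ-free replicate 3, adjusted p = 0.0526 and 0.134, and Cry2 was lost without conventional replicate 2 or either germ-free library, adjusted p = 0.349, 0.0968 and 0.224. Per1 had 29.7 and 25.7 CPM in conventional and 20.2 and 19.9 CPM in germ-free serum (-0.47 ± 0.138, adjusted p = 0.0559), and Nr1d1, the repressor REV-ERB alpha, had 5.1 and 5.02 CPM in conventional and 5.45 and 5.02 CPM in germ-free serum (0.05 ± 0.225, adjusted p = 0.929). In addition, Per1 was called without conventional replicate 3 (adjusted p = 0.045). The time of harvest is not given in the labels.

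Growth hormone and IGF genes were called in both directions, with 3 rises and 4 falls among 17, against 2.86% and 3.54% of all genes. None was secure. Cish, a target of growth hormone, had 29.1 and 25 CPM in conventional and 43.3 and 39.4 CPM in germ-free serum (0.61 ± 0.156, adjusted p = 0.0281), whereas Socs2, another target, had 24.5 and 17.9 CPM in conventional and 15.5 and 14.6 CPM in germ-free serum (-0.50 ± 0.128, adjusted p = 0.0291). Cish was lost without each library in turn, adjusted p = 0.0751, 0.122, 0.165 and 0.0872, and Socs2 was lost without conventional replicate 2 or either germ-free library, adjusted p = 0.397, 0.107 and 0.182. Igf1, the growth factor of liver, had 440 and 362 CPM in conventional and 335 and 366 CPM in germ-free serum (-0.19 ± 0.0882, adjusted p = 0.218; without conventional replicate 3 adjusted p = 0.0374) and was lower in germ-free than in conventional male serum, where it had 467, 494 and 450 CPM (log2 -0.42, adjusted p = 0.0349).

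**Figure D3:**
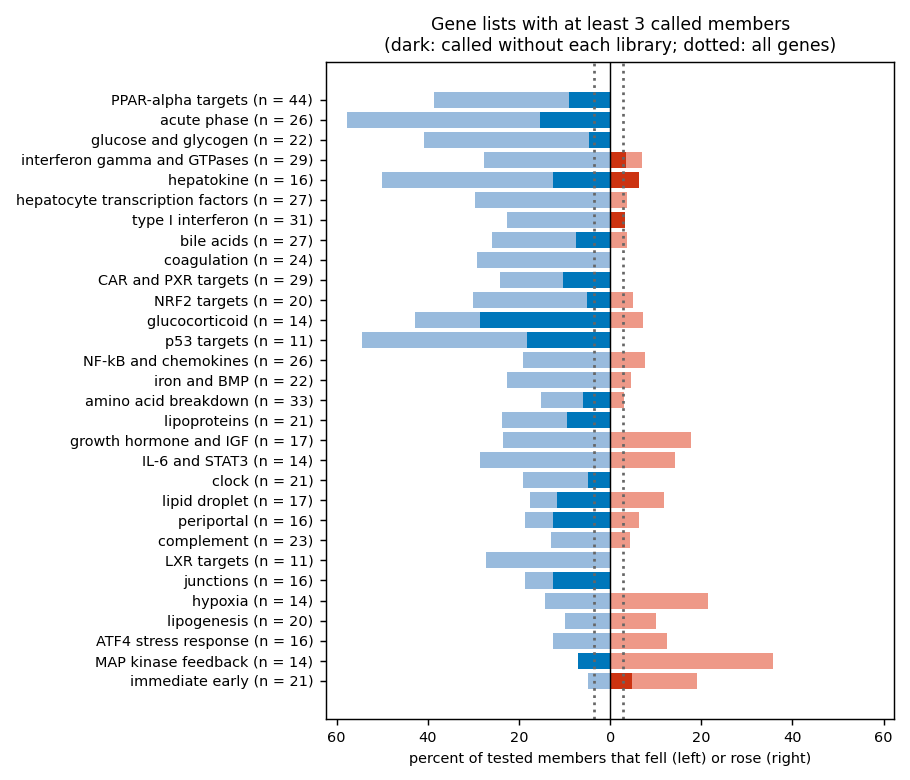
For each gene list with at least 3 called members, the bar to the left gives the percent of tested members that fell and the bar to the right the percent that rose in germ-free serum; dark parts were called without each of the 4 libraries as well, and dotted lines mark all genes tested (3.54% falls, 2.86% rises). Falls prevail in the acute phase list (15 of 26 members) and the PPAR-alpha list (17 of 44), and rises in the MAP kinase feedback list (5 of 14).

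Transcription factors of hepatocytes fell in 8 of 27 members and rose in 1, against 3.54% falls and 2.86% rises over all genes. Besides Ppara, Nr1i2, Nr1h4 and Nr1h3, the falls were Hnf4a (-0.43), Cebpa (-0.44), Foxa2 (-0.48) and Nr5a2 (-0.51), picked after their values were seen. The falls numbered 2, 10, 2 and 1 without each library in turn. Onecut2, a factor of the fetal and biliary lineage, was the rise, from 27.2 and 23.4 to 51.6 and 43.6 CPM (0.91 ± 0.193, adjusted p = 0.0104; lost without conventional replicate 3 or germ-free replicate 2, adjusted p = 0.0542 and 0.102).

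Cxcl10, a chemokine that interferons induce and that attracts T cells (chr5:92346638-92348889), rose from 3.47 and 3.62 to 18.2 and 19.5 CPM (2.41 ± 0.276, adjusted p = 0.000164). The gene overlaps Art3 on the other strand. Conventional male serum gave 9.96, 4.23 and 8.98 CPM, between the other sera, and germ-free serum was also higher than it (log2 1.28, adjusted p = 0.029). Oasl1, an interferon-induced regulator of translation, had 84.7 and 78.5 CPM in conventional and 124 and 138 CPM in germ-free serum (0.68 ± 0.113, adjusted p = 0.00251). It was likewise higher than in conventional male serum, where it had 102, 79.6 and 91.1 CPM (log2 0.53, adjusted p = 0.0349). In germ-free serum with growth hormone, however, Oasl1 had 80.8, 96.5 and 101 CPM, below both libraries without hormone. Cxcl10 had 12.3, 19.8 and 17.3 CPM there, which overlapped them. The part of the hormone in these levels was not tested.

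These 2 rises stood against falls of other interferon genes. Of 31 type I interferon genes 7 fell and 1 rose, and of 29 interferon gamma genes and GTPases 8 fell and 2 rose. The shares over all genes tested were 3.54% falls and 2.86% rises, so 1 rise of 31 was near the background. The falls numbered 0, 14, 0 and 3 of the first list and 0, 11, 2 and 3 of the second without each library in turn, while Oasl1 and Cxcl10 remained called in each of these fits. Ifit1, an antiviral RNA binder, had 68 and 50.2 CPM in conventional and 35.6 and 37.3 CPM in germ-free serum (-0.70 ± 0.137, adjusted p = 0.00677; lost without conventional replicate 2 or either germ-free library, adjusted p = 0.121, 0.0707 and 0.0516). Iigp1, a GTPase against intracellular parasites, had 62.6 and 42.7 CPM in conventional and 25.2 and 25.7 CPM in germ-free serum (-1.05 ± 0.182, adjusted p = 0.00324) and was lost without conventional replicate 2 (-0.75, adjusted p = 0.0519).

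Chemokines and feedback genes of NF-kB, the factor that bacterial products activate, fell in 5 of 26 members and rose in 2, with 1, 7, 1 and 2 falls without each library in turn. Irak3, an inhibitor of Toll-like receptor signalling, had 48.2 and 41.8 CPM in conventional and 32.4 and 25.3 CPM in germ-free serum (-0.64 ± 0.11, adjusted p = 0.00315; lost without germ-free replicate 3, adjusted p = 0.0533). Cxcl1, which attracts neutrophils, had 140 and 135 CPM in conventional and 93.5 and 103 CPM in germ-free serum (-0.49 ± 0.0952, adjusted p = 0.00677; lost without conventional replicate 2 or germ-free replicate 2, adjusted p = 0.0623 and 0.0866). Cxcl1 had 56.5, 67.7 and 67.9 CPM in conventional male serum, so germ-free serum lay between the sera and above male serum (log2 0.62, adjusted p = 0.00604). The other falls were Ccl7, Tnfaip2 and Cxcl2 (-0.50, -0.50 and -0.43), and the rises were Relb (0.40) and Nfkb2 (0.34), subunits of the noncanonical pathway, both lost without each library in turn.

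Irx3 and Irx5, neighbouring homeobox genes of 1 cluster on chromosome 8, both rose. Irx3 (chr8:91798525-91802067) had 4.96 and 6.79 CPM in conventional and 27.5 and 28.4 CPM in germ-free serum (2.25 ± 0.257, adjusted p = 0.000164). Irx5 (chr8:92357625-92376286) had 1.12 and 2.79 CPM in conventional and 11.6 and 11.9 CPM in germ-free serum (2.59 ± 0.391, adjusted p = 0.00134). Germ-free libraries lay far above the conventional ones in both, and conventional male serum gave 21.8, 10.7 and 20.3 CPM for Irx3 and 8.25, 3.92 and 9.69 CPM for Irx5, with replicate 2 the lowest in each. Sox4, a factor of progenitor cells, had 76.5 and 132 CPM in conventional and 312 and 352 CPM in germ-free serum (1.67 ± 0.233, adjusted p = 0.000735), and 322, 208 and 354 CPM in conventional male serum, which overlapped germ-free serum. It was 1 of 2 rises among 15 fetal and progenitor genes, against 2.86% rises over all genes. AL606528.1, an antisense model that overlaps Sox4, had 0.826 and 1.12 CPM in conventional and 4.85 and 3.4 CPM in germ-free serum (2.09 ± 0.284, adjusted p = 0.000643), and its reads cannot be told apart from those of Sox4 without the strand setting.

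Npy, a neuropeptide, had 6.18 and 7.86 CPM in conventional and 30.5 and 37.8 CPM in germ-free serum (2.28 ± 0.249, adjusted p = 0.000161). Mex3a, an RNA-binding protein of progenitor cells, had 0.392 and 0.402 CPM in conventional and 2.48 and 2.76 CPM in germ-free serum (2.71 ± 0.411, adjusted p = 0.00137). Dok7, an adaptor of the muscle kinase MuSK, had 0.124 and 0.514 CPM in conventional and 2.81 and 2.76 CPM in germ-free serum (3.14 ± 0.543, adjusted p = 0.00324). Mex3a and Dok7 were scarce, with under 4 CPM in every library of the 3 sera. Npy had 25.8, 18 and 27.1 CPM in conventional male serum and Mex3a had 3.35, 1.06 and 2.76 CPM, which for Mex3a overlapped germ-free serum. Dok7 had 1.07, 0.334 and 1.14 CPM there, below germ-free serum and overlapping conventional female serum, and germ-free minus male did not pass the test (adjusted p = 0.0931).

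Inhba, the activin A subunit, had 3.06 and 4.13 CPM in conventional and 13.6 and 15 CPM in germ-free serum (1.99 ± 0.335, adjusted p = 0.00276), and conventional male serum spanned 9.56, 2.7 and 6.86 CPM. Rrad, a small GTPase that inhibits calcium channels, had 4.5 and 7.97 CPM in conventional and 22.6 and 30 CPM in germ-free serum (2.08 ± 0.24, adjusted p = 0.000181). Slc30a3, a zinc transporter, had 0.537 and 0.514 CPM in conventional and 2.88 and 2.2 CPM in germ-free serum (2.27 ± 0.272, adjusted p = 0.000221). Htr2b, a serotonin receptor, had 2.93 and 2.26 CPM in conventional and 10 and 10.6 CPM in germ-free serum (1.99 ± 0.207, adjusted p = 0.000107), and it overlaps Psmd1 on the other strand. Each of these 4 genes was also called without each of the 4 libraries in turn. Rrad had 16.6, 11.9 and 16.2 CPM in conventional male serum, between the other sera, and Slc30a3 had 2.44, 1.7 and 2.1 CPM and Htr2b 10.9, 8.54 and 9.69 CPM, which overlapped germ-free serum. AC131780.1, a gene model on chromosome 9, had 0 and 0.558 CPM in conventional and 3 and 3.34 CPM in germ-free serum (adjusted p = 0.00512), and 4.15, 4.25 and 3.72 CPM in conventional male serum.

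**Figure D4:**
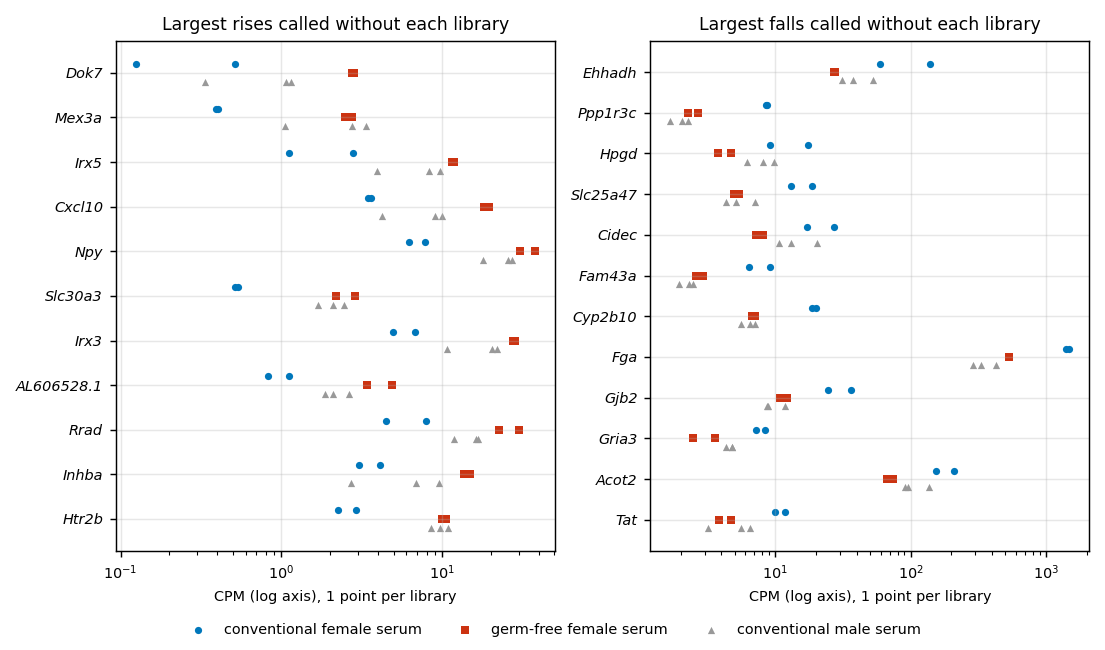
CPM on a log axis, 1 point per library, for the largest rises (left, without AC131780.1, which has 0 counts in 1 library) and the largest falls (right) among genes called without each of the 4 libraries. Blue and red points are apart by the choice of genes. The grey points of conventional male serum lie near the red ones for Slc30a3, Htr2b, Cyp2b10 and Slc25a47 and between the sera for Gria3.

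The other large secure falls came from varied functions. Hpgd, which inactivates prostaglandins, had 17.4 and 9.2 CPM in conventional and 3.77 and 4.68 CPM in germ-free serum (-1.66 ± 0.258, adjusted p = 0.00156). Slc25a47, a mitochondrial carrier of liver, had 18.8 and 13 CPM in conventional and 4.97 and 5.41 CPM in germ-free serum (-1.61 ± 0.203, adjusted p = 0.000357). Gjb2, the gap junction protein connexin 26, had 36.4 and 24.6 CPM in conventional and 12.1 and 10.9 CPM in germ-free serum (-1.41 ± 0.217, adjusted p = 0.00154). Cldn1, a tight junction protein, fell with it (-0.97 ± 0.151, adjusted p = 0.00156). Fam43a had 9.09 and 6.41 CPM in conventional and 2.93 and 2.59 CPM in germ-free serum (-1.49 ± 0.208, adjusted p = 0.000735), and Gria3, a glutamate receptor subunit on the X chromosome, had 8.45 and 7.21 CPM in conventional and 3.58 and 2.45 CPM in germ-free serum (-1.37 ± 0.18, adjusted p = 0.000521). Hpgd had 6.21, 9.84 and 8.15 CPM in conventional male serum, above germ-free serum and overlapping conventional female serum, and germ-free minus male did not pass the test (adjusted p = 0.117). Slc25a47 had 4.29, 7.04 and 5.16 CPM and Gjb2 8.73, 11.8 and 8.85 CPM there, both overlapping germ-free serum. Fam43a had 2.3, 2.45 and 1.95 CPM, below both germ-free libraries, and Gria3 had 4.82, 4.76 and 4.33 CPM, between the other sera. In germ-free serum with growth hormone, however, Fam43a had 11.5, 7.93 and 9.17 CPM. These levels were above both libraries without hormone and overlapped conventional female serum. The part of the hormone was not tested.

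Of 14 MAP kinase feedback genes 5 rose and 1 fell, with 0, 4, 2 and 1 rises without each library in turn. Dusp4, a phosphatase that switches off MAP kinases, had 4.15 and 6.23 CPM in conventional and 10.6 and 10.9 CPM in germ-free serum (1.05 ± 0.21, adjusted p = 0.00726), and Etv4, a factor downstream of them, had 2.25 and 2.52 CPM in conventional and 4.33 and 5.24 CPM in germ-free serum (1.00 ± 0.186, adjusted p = 0.00497). Dusp4 was lost without conventional replicate 2 or germ-free replicate 3, adjusted p = 0.113 and 0.0577, and Etv4 was lost without conventional replicate 2 or germ-free replicate 3, adjusted p = 0.0673 and 0.0656. Spred3, Dusp5 and Egfr were the other rises (0.74, 0.51 and 0.29), and Errfi1 was the fall. For this list and the next, 2.86% of all genes rose and 3.54% fell. Of 21 immediate early genes 4 rose (Ier3, Egr1, Maff and Junb) and 1 fell (Btg2), with 1, 3, 2 and 2 rises without each library in turn. Ier3, an early gene of survival signalling, had 48.1 and 57.7 CPM in conventional and 85.8 and 95.9 CPM in germ-free serum (0.78 ± 0.117, adjusted p = 0.00126) and was secure. Ier3 had 79.5, 67.9 and 87.2 CPM in conventional male serum, which overlapped germ-free serum.

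Cryab, a small heat shock protein, had 61.9 and 59.1 CPM in conventional and 116 and 131 CPM in germ-free serum (1.03 ± 0.116, adjusted p = 0.000164) and was secure. It was the 1 call among 11 heat shock genes, against 6.41% of all genes tested, and shares exon sequence with Hspb2 on the other strand. It was also higher than in conventional male serum, where it had 98.5, 76.7 and 84.8 CPM (log2 0.51, adjusted p = 0.0433). In germ-free serum with growth hormone Cryab had 86.7, 94.9 and 104 CPM, below both libraries without hormone. Ndrg1, a stress gene that hypoxia and other signals raise, had 105 and 171 CPM in conventional and 436 and 415 CPM in germ-free serum (1.63 ± 0.29, adjusted p = 0.00386; lost without conventional replicate 2, adjusted p = 0.0634), within a hypoxia list of 3 rises and 2 falls among 14 that held 1, 2, 1 and 1 rises without each library in turn. Ndrg1 had 358, 168 and 304 CPM in conventional male serum, below germ-free serum and overlapping conventional female serum, and germ-free minus male did not pass the test (adjusted p = 0.393). Targets of p53, the factor of DNA damage, fell in 6 of 11 members, of which Phlda3 (-0.53 ± 0.0949, adjusted p = 0.00402) and Ccng1 (-0.46) were secure; the falls numbered 4, 5, 4 and 2 without each library in turn. Cdkn1a, the best known target, had a log2 change of 0.12 and did not pass the test. For the hypoxia and p53 lists the shares over all genes tested were 3.54% falls and 2.86% rises. Cell cycle genes were called in 2 of 36, Kif20a and Pcna (0.79 and 0.32), both rises, against 2.86% of all genes. Kif20a was lost without conventional replicate 2 or germ-free replicate 3, adjusted p = 0.124 and 0.0935, and Pcna was lost without conventional replicate 2 or either germ-free library, adjusted p = 0.429, 0.0642 and 0.307.

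Of 22 genes with female-biased expression in liver 1 fell, against 3.54% of all genes, a share near the background. It was Cyp2a4 (-0.86 ± 0.174, adjusted p = 0.00798; lost without germ-free replicate 3, adjusted p = 0.103). Of 22 male-biased genes 1 rose, against 2.86% of all genes. It was Mup7, at under 0.3 CPM in every library of the 3 sera and among near-identical genes that share reads; it was lost without conventional replicate 2 or germ-free replicate 3, adjusted p = 0.235 and 0.232. Among genes with zoned expression in liver, 2 of 17 of the pericentral list fell, against 3.54% of all genes (Avpr1a and Rhbg, neither called without conventional replicate 2, where their adjusted p was 0.429 and 0.227, nor without either germ-free library). The periportal list of 16 held 3 falls (Hsd17b13, Cps1 and Pck1, of which Pck1 alone was not secure) and 1 rise, Ctsc, lost without each library in turn, adjusted p = 0.267, 0.0669, 0.0831 and 0.26.

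**Figure D5:**
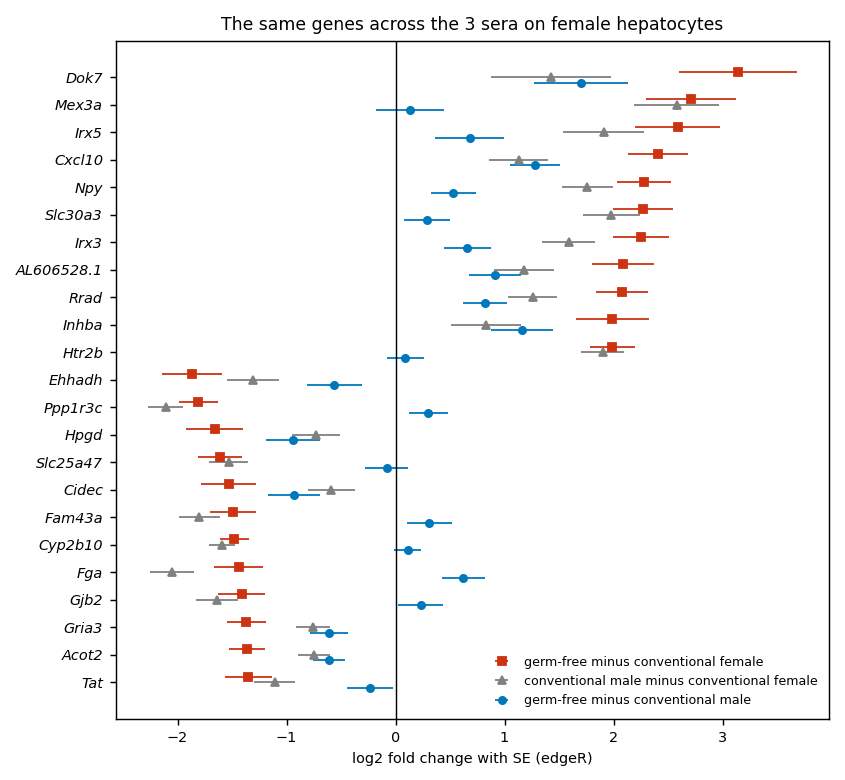
Log2 fold changes with SE for the same genes in germ-free minus conventional female serum (red), conventional male minus conventional female serum (grey) and germ-free minus conventional male serum (blue); the 3 comparisons share libraries. The genes were chosen by their red values, which are large for that reason. Among the blue values those of Dok7 (1.70) and Cxcl10 (1.28) are the largest. By edgeR's quasi-likelihood test that of Cxcl10 passed the threshold (adjusted p = 0.029) and that of Dok7 did not (adjusted p = 0.0931).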

How the data were processed

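The deposited table holds raw read counts per gene over exons, whole numbers without scaling, as the authors made them; reads were aligned with STAR 2.4.0i to mm10, per the submitters' processing notes. Libraries were made from 250 ng total RNA with a stranded kit after ribosomal RNA depletion, with 12 PCR cycles, per the labels' protocols. For the counting program, the gene annotation used and the strand setting, no source used here gives a name, and mitochondrially encoded genes were not analysed here. A pair of columns with 1 name (2 columns) was used in no step. The design had assumed all 15 samples.

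Of 38087 gene rows, 36308 matched GENCODE M21, which gave coordinates. In edgeR 4.0.16, filterByExpr at a minimum count of 10 left 17405 genes, and library sizes were scaled by TMM. One model of 5 groups without covariates was fitted to 13 libraries (8 residual degrees of freedom) and tested with the two-sided quasi-likelihood F test, with Benjamini-Hochberg adjustment over all genes tested and a threshold of 0.05. CPM use TMM-scaled library sizes and are not scaled by gene length, so they do not rank genes against each other. In replicate pairs of a group the chi-square per degree of freedom was 5.46 to 53.4, so none was a copy of another. In simulated data of the same design 43.3%, 65.7% and 90.9% of genes with a true log2 change of 0.58, 1 and 2 were recovered (17405 genes), and 3.62% of calls were false. Only 67, 67 and 66 genes were changed at these sizes, and counts were drawn from the fit's own dispersions. No simulated library stood apart from its group, unlike some real ones, so these shares may not hold for the real calls.

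Named genes were, by size of fold change, the top 12 in either direction among those called without each library too whose counts averaged 50 or more and whose groups did not overlap, passing over predicted models with Gm or Rik names, Y-linked genes and Xist; up to 4 called members of each of 43 function lists by fold change; and 42 further genes whatever their values. Some genes that the rule names are not reported here. The lists held 989 memberships: the symbol matched in 960, the gene identifier in 15, and 14 had no match. The members and lists were chosen with earlier results of these data known. Alternatives were other scalings, filters and tests (limma 3.58.1, DESeq2 1.42.0), fewer libraries, a replicate block and a test against a 1.5-fold change.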

Additional observations from a re-analysis of the deposited data

How the results depend on the processing

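The number of genes that differed between the sera was within 1.5 times of 1115 under the other scalings (1081 to 1134), limma-voom, DESeq2, the filter at a minimum count of 50 and the fit with a replicate block. Without any filter it was 1731, with 990 falls. It was 653 (328 rises, 325 falls) with only the 4 libraries compared and 685 (353 falls) with female hepatocytes only. Both fits have fewer libraries and leave out the male hepatocytes. Replicate pairs of male hepatocytes had a chi-square per degree of freedom of 5.46 to 8.74. It was 34.2 for the conventional and 14.2 for the germ-free pair compared. The cause of the lower counts was not tested. Without conventional replicate 2 and growth hormone replicate 1, the libraries richest in Xist, it was 367 (201 rises, 166 falls). The test against a 1.5-fold change called 31 genes (22 rises, 9 falls). Leaving out 1 library gave 278 to 1233 genes, 154 to 484 rises and 124 to 749 falls, lowest without conventional replicate 2; the cause was not tested.

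The labels do not say whether replicate numbers pair the samples. Same-numbered libraries of the compared sera had a correlation of deviations of -0.013 over all genes. With 2 libraries a group the deviations mirror each other, so this value cannot tell whether the numbers pair samples. With the replicate number as a block 981 genes were called (458 rises, 523 falls), 946 of them among the 1115, and 12 of 161 named genes lost their call. More lost it in other settings: 26 with only the 4 libraries compared, 35 with female hepatocytes only and 124 in the 1.5-fold test. Many named genes also lost it when a library was left out, as given above.

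A few uncalled values changed sign, none of them called in any fit named here. Cyp7a1 (0.10) came to -0.05 with germ-free replicate 3 left out and to -0.18 without both Xist-rich libraries, and ranged from -0.18 to 0.43 over the fits that left out 1 library. Pdk4 (-0.04) was 0.10 and 0.20 in these fits and ranged from -0.25 to 0.20. Nr1d1 (0.05) was -0.01 without germ-free replicate 2. Socs3 (0.11) was -0.01 without both Xist-rich libraries and ranged from -0.02 to 0.24. With 2 libraries a group, changes under 2-fold were often below what the depth and spread could show.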

Other observations

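Several genes outside the lists were called with all libraries and without each of the 4; they were picked after their values were seen. Lmcd1, a LIM domain cofactor, had 25.1 and 24.8 CPM in conventional and 65.6 and 75.7 CPM in germ-free serum (log2 1.5, adjusted p = 3.23e-05), and 70.3, 70.1 and 93.3 CPM in conventional male serum. Cd44, a hyaluronan receptor, had 79.8 and 56.2 against 111 and 125 CPM (0.79), and the integrins Itga2 and Itga3 changed by 1.16 and 0.50. Hgsnat, a lysosomal acetyltransferase, had 83.4 and 80.6 against 114 and 118 CPM (0.50, adjusted p = 0.000521). Conventional male serum gave 85.2, 79.8 and 84.5 CPM for Hgsnat, so germ-free serum was above both conventional sera (germ-free minus male 0.48, adjusted p = 0.00292). In germ-free serum with growth hormone Hgsnat had 91.9, 97.2 and 94.8 CPM, below both libraries without hormone. Foxq1 had 7.97 and 8.71 against 13.1 and 13.7 CPM (0.68), and 23.4, 22.1 and 21.5 CPM in conventional male serum, above germ-free serum (germ-free minus male -0.74, adjusted p = 0.00581).

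Among the falls, Il22ra1, a receptor subunit for interleukin 22, had 34.3 and 23.8 against 12.7 and 12.2 CPM (log2 -1.22, adjusted p = 0.00304). The alpha-arrestins Txnip and Arrdc3 fell by 0.85 and 0.98 on the log2 scale, from 16.5 and 15.3 to 8.99 and 8.67 CPM for Txnip. Soat2, which esterifies cholesterol, had 25.8 and 25.4 against 14.9 and 12.6 CPM (-0.90), Ttpa, the vitamin E transfer protein, 55.2 and 52 against 31.9 and 32.4 CPM (-0.74), and Ces2e, a carboxylesterase, 80.3 and 93.1 against 48.9 and 48.4 CPM (-0.83). Fas, the death receptor, had 19 and 19.3 against 11.4 and 11.8 CPM (-0.72). The predicted model Gm17535 had 0.0826 and 1.34 CPM in conventional female serum and 9.13 and 8.56 CPM in germ-free serum, with 4.46 to 8.45 CPM in the other libraries of female hepatocytes, so the conventional female libraries stood apart from all of them.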
